A study of Mus musculus with 24 samples.

Results

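The Zfp genes described here are the numbered zinc finger genes that were detectably transcribed in mouse liver. Their symbol is Zfp followed only by digits, and their deposited count, scaled to the library total, exceeded 1 CPM in 4 or more libraries out of the 20 made from single mice. Of 41388 genes in the files, 373 carried such a symbol and 273 met the limit. Counts chose these members, so a level above the limit is no result. Zfp871 and Zfp979 were singled out because the study lists both for a genotype difference on these same livers, and their genotype differences are therefore given as values with no test. They stay in the counts of members called, which is no test of them.

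Liver RNA came from male C57BL/6J mice in 4 groups of 5. WT mice and Adn-Lpin1-/- mice were littermates, and both genotypes carried the homozygous floxed Lpin1 allele. Only the Adn-Lpin1-/- mice also carried Cre recombinase, driven by the adiponectin promoter, so lipin 1 was deleted in adipocytes and not in the hepatocytes sampled here. From 8 weeks of age the mice ate a low-fat diet (LFD, 10% of kcal from fat) or a high-fat diet (HFD, 60% of kcal from fat), for 5 weeks by the methods and 16 weeks by the sample labels, and were fasted for 4 h before the livers were taken. A further library pooled the mice of each group, and these 4 pools entered no comparison.

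C2H2 zinc finger proteins read DNA or RNA through short loops, each folded around a zinc ion held by a pair of cysteines and a pair of histidines. Tandem fingers dock side by side on the double helix, so an array of fingers specifies a longer sequence. The largest group in mammals places a KRAB box ahead of the fingers, which recruits the co-repressor TRIM28 and the histone methyltransferase SETDB1 and silences chromatin, in particular at retroelements. These genes multiplied by tandem duplication, lie in chromosomal clusters and resemble each other closely. Zfp genes without a KRAB box include activators, RNA-binding proteins and ubiquitin ligases.

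A KRAB box was sought by a score in the longest translated coding sequence of each member and found in 149. None was found in 122 members, and 2 transcribed pseudogenes had no coding sequence. A member in which none was found may still carry a box that the score missed. The words without a KRAB box are used for members in this limited sense. Members with a KRAB box had a median of 12 fingers, against 7 for those without. In 11 members, among them Zfp36, Zfp326 and Zfp638, no C2H2 finger was found. Their transcripts were AT-rich, with a median GC content of 41.5%, against 50.7% without a KRAB box and 49.7% over the genes tested that had a transcript sequence. The members clustered by position, with 70 on chromosome 7, 36 on chromosome 17 and 21 on chromosome 13, and 31 of the 36 on chromosome 17 held a KRAB box.

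The finger repeats of Zfp871 and Zfp979 are shown because they make both properties visible, the repeated zinc-binding frame and the base composition. Each line is 84 bases of coding sequence from the mouse GENCODE M21 transcripts (GRCm38), which is a whole finger and the linker to the next. Capitals mark the codons of the 2 cysteines and the 2 histidines. The Zfp871 stretch lies at chr17:32775366-32775617 on the minus strand.
Zfp871 finger 1: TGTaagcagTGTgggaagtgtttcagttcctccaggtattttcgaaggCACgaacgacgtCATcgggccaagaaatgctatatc
Zfp871 finger 2: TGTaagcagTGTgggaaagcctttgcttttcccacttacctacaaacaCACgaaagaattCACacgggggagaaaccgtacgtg
Zfp871 finger 3: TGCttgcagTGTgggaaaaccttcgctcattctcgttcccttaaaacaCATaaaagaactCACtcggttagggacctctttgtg
The Zfp979 fingers lie at chr4:147613225-147613392 and chr4:147613057-147613140, also on the minus strand.
Zfp979 finger 1: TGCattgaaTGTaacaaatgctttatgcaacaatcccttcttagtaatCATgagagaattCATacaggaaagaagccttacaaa
Zfp979 finger 2: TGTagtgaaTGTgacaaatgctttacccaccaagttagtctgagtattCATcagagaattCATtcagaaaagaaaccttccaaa
Zfp979 finger 3: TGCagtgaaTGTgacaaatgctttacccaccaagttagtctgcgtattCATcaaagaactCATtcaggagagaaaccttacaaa
The repeats were picked by this spacing, so the frame of capitals recurs at the same 4 places in each by choice. The bases between them differ to a varying degree. The 3 Zfp979 fingers shared 77.4% to 91.7% of their bases with each other, and the 3 Zfp871 fingers 52.4% to 66.7%. The GC content of the repeats was 33.3% to 39.3% in Zfp979 and 45.2% to 47.6% in Zfp871. Zfp871 (ENSMUSG00000024298, chr17:32771236-32788287, minus strand) has 15 fingers and a KRAB box, and no 75-base stretch of its transcripts occurred in another gene. Zfp979 (ENSMUSG00000066000, chr4:147611937-147642513, minus strand) has 3 fingers and a KRAB box, and 23.6% of its 75-base stretches also occurred in another gene, most often Zfp600. Since only uniquely placed reads were counted, the level of Zfp979 is uncertain.

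The stretches ahead of the transcription start are shown for Zfp871 and Zfp971, the members with the lowest level in Adn-Lpin1-/- relative to WT liver, and for Zfp949 and Zfp979, which were higher. Each is the 250 bases upstream of the start in the RefSeq promoter table (GRCm38.p6), written in the direction of transcription, with CpG dinucleotides in capitals.
Zfp871, chr17:32788288-32788537, - strand: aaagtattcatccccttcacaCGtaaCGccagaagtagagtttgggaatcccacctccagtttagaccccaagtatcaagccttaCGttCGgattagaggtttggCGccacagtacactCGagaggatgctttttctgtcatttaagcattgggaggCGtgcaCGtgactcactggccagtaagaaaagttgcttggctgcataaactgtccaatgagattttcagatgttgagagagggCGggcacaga
Zfp971, chr2:178023034-178023283, + strand: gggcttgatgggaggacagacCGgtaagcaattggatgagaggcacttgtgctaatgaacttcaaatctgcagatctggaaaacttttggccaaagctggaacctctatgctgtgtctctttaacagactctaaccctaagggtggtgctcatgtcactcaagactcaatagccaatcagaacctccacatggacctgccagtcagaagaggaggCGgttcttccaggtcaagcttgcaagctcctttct
Zfp949, chr9:88547770-88548019, + strand: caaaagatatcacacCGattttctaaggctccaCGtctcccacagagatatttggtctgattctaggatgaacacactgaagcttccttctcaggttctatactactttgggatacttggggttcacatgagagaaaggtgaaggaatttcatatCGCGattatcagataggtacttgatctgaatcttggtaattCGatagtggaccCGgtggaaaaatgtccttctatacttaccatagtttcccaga
Zfp979, chr4:147642509-147642758, - strand: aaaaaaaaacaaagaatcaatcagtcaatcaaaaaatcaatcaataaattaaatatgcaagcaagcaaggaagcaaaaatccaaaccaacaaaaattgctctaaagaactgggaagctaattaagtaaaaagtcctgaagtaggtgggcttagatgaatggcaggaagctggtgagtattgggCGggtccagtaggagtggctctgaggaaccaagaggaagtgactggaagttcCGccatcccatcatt
They held 9, 2, 6 and 2 CpG dinucleotides in that order, and their GC content ran from 39.6% to 48.8%. A promoter of 300 bases (250 before and 50 after the start) was listed for 229 of the 273 members. Their median GC content was 55% and they held a median of 15 CpG dinucleotides, against 60.7% and 20.5 over the 9692 promoters of genes tested. With a KRAB box the medians were 53% and 11, and without 61.3% and 20. The TATA motif TATAAA, searched on both strands, occurred in 5.24% of member promoters, in 7.32% of those of genes tested and in 14.2% of all 27025 promoters in the table.

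Most Zfp genes were weakly transcribed. Library totals ran from 36260187 to 81072794 counts, and the 273 members together took 99458 to 214742 counts in a mouse. The median member stood at 5.33 CPM (the mean over 20 mice, scaled by TMM, the trimmed mean of M-values), against 13.9 CPM for the 13052 genes tested. Members with a KRAB box had a median of 3.4 CPM and those without 10.7 CPM. The summed TMM-scaled level of all members was 2820 ± 110 CPM (SD, n = 5) in WT LFD liver, 2618 ± 124 CPM in Adn-Lpin1-/- LFD, 2725 ± 74 CPM in WT HFD and 2567 ± 101 CPM in Adn-Lpin1-/- HFD. As a share of the unscaled library total, in the same order, the members took 0.268 ± 0.008%, 0.266 ± 0.009%, 0.263 ± 0.011% and 0.270 ± 0.009%. The lower sums in Adn-Lpin1-/- liver thus depend on the scaling.

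Per kilobase of exon, the highest member was Zfp36, known as tristetraprolin, which binds AU-rich elements and speeds the decay of inflammatory mRNAs, at a mean level of 49.9 RPKM. Zfp598, the ubiquitin ligase that marks collided ribosomes, followed at 30.3 RPKM. Zfp809, a KRAB protein that silences murine leukaemia virus sequences, stood at 17 RPKM, Zfp524 at 16.5 RPKM and Zfp706 at 16 RPKM. The median member was at 1.27 RPKM.

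The limit of 1 CPM cut through a continuum. The members just inside it, Zfp580, Zfp872 and Zfp791, passed in 4 libraries each, and Zfp551 and Zfp59 just outside it passed in 3 and Zfp61 in 2. The limit was met in all 20 libraries by 227 members. No member met it in the libraries of 1 group alone, and 2 met it in Adn-Lpin1-/- libraries only.

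Hepatocyte markers dominated every library, with the 6 listed genes summing to 78628 to 117305 CPM, and no gene on any of the 10 cell type lists was at 0 in every library. Stellate cell markers (8 genes) summed to 159 to 329 CPM in WT LFD, 333 to 583 CPM in Adn-Lpin1-/- LFD, 278 to 387 CPM in WT HFD and 348 to 633 CPM in Adn-Lpin1-/- HFD. Of the 7 Kupffer cell and macrophage markers, 6 were higher in Adn-Lpin1-/- liver on the HFD, as were 4 of the 6 sinusoidal endothelial markers, while 5 of the 6 hepatocyte markers were lower. On the LFD, 0 of the 7 macrophage and 2 of the 6 endothelial markers were called higher, and 1 of the 6 hepatocyte markers lower. Over all genes tested, 6.27% were called higher and 8.11% lower on the LFD, and 9.87% and 8.78% on the HFD. The part of these markers in the differences below was not tested, and in bulk tissue fewer cells of a type and less RNA per cell cannot be told apart. Hepatic Lpin1 itself, which was not deleted in these cells, overlapped between the genotypes on each diet, with adjusted p = 0.314 on the LFD and 0.734 on the HFD (edgeR).

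The difference between the genotypes was examined first in Zfp871. Its level in CPM was 25.4, 26.1, 27.5, 21.3 and 22.8 in the WT LFD mice. In the Adn-Lpin1-/- LFD mice it was 3.66, 2.87, 1.87, 3.27 and 1.52. The WT HFD mice stood at 25.7, 25.3, 22, 22.7 and 20.4, and the Adn-Lpin1-/- HFD mice at 4.48, 2.98, 4.19, 4.78 and 6.52. Every Adn-Lpin1-/- liver was far below every WT liver on the same diet. The level was 9.38-fold lower on the LFD and 5.05-fold lower on the HFD, on the scale of the fitted values. The pools lay close to the single mice, at 23.4 and 3.44 CPM on the LFD and 24.6 and 4.65 CPM on the HFD. The counts behind these levels were 93 to 525 in Adn-Lpin1-/- mice and 818 to 1407 in WT mice.

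Zfp979 moved the other way and was close to the detection limit. In WT LFD liver it stood at 0.0772, 0.0675, 0.179, 0.104 and 0.567 CPM, and in Adn-Lpin1-/- LFD liver at 0.739, 0.771, 0.478, 0.154 and 1.69 CPM. In WT HFD liver it was 0.474, 0.983, 0.882 and 0.5 CPM in 4 mice, with no count in the 5th, which allows up to 0.0482 CPM (3 counts of the total, for counting error alone). The Adn-Lpin1-/- HFD mice had 3.89, 3.07, 1.74, 0.673 and 2.01 CPM. The Adn-Lpin1-/- means were higher and the groups overlapped on both diets, since WT LFD mouse 5 stood above Adn-Lpin1-/- LFD mice 3 and 4, and WT HFD mice 2 and 3 above Adn-Lpin1-/- HFD mouse 4. On the LFD the fitted log2 fold change was 1.94 ± 0.78 (SE), on the HFD it was 2.00 ± 0.65, and the LFD value was 2.86 without WT LFD mouse 5.

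**Figure D1:**
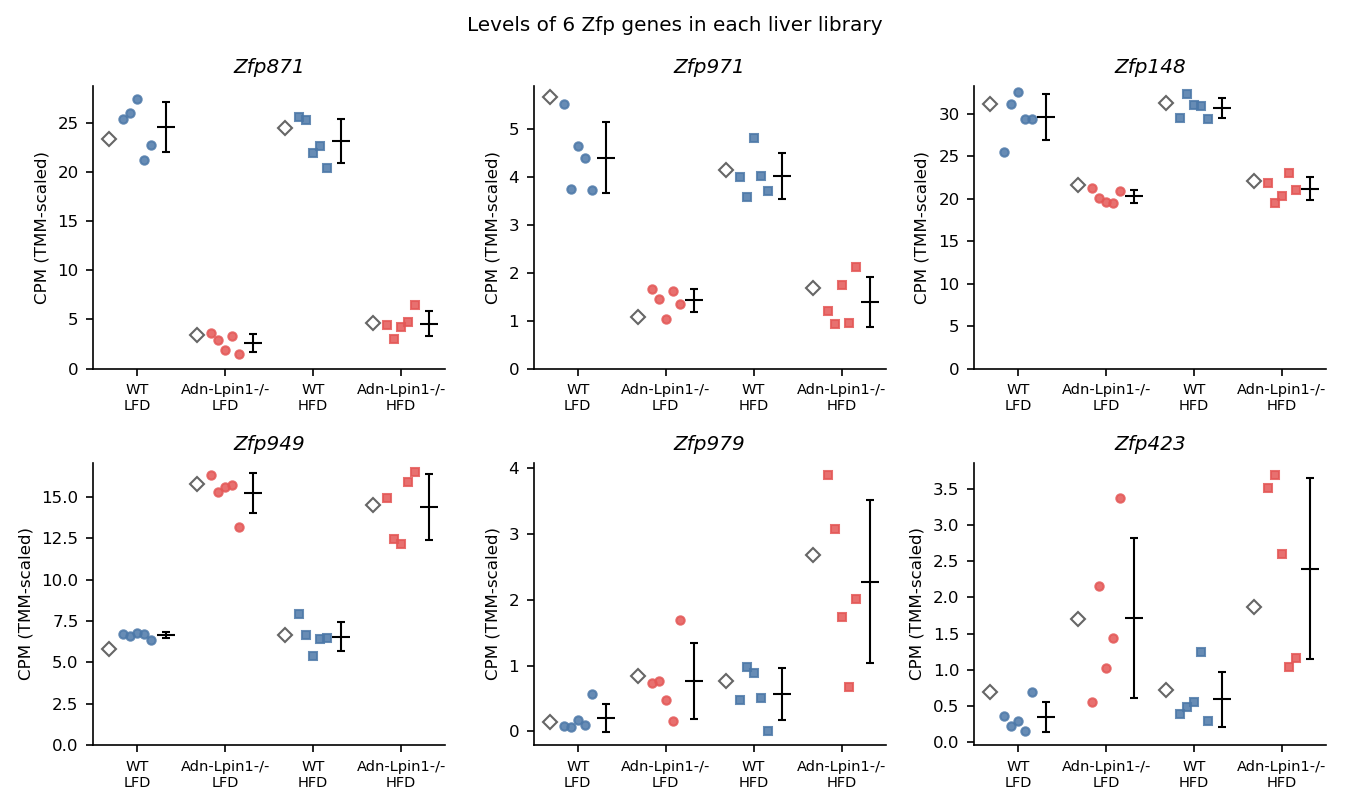
Level of 6 Zfp genes in TMM-scaled CPM (vertical axes, linear) in each liver library. Filled circles (LFD) and squares (HFD) are single mice, blue for WT and red for Adn-Lpin1-/-, bars are the mean ± SD of 5 mice and open diamonds are the pools. Zfp871, Zfp971 and Zfp148 separate the genotypes downwards and Zfp949 upwards without overlap, while Zfp979 and Zfp423 overlap.

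The members within 1 Mb of these 2 on the chromosome had smaller differences. Within 1 Mb of Zfp871, 9 other members were measured, and their log2 fold changes ran from -0.57 to 0.23 (LFD) and from -0.32 to 0.38 (HFD). Of these, Zfp81, 541 kb away, fell on the LFD (log2 -0.57, adjusted p = 0.0101, edgeR) and Zfp414, 841 kb away, rose on the HFD (log2 0.38, adjusted p = 0.0374, edgeR). Around Zfp979, the members Zfp982, Zfp984 and Zfp933 had log2 fold changes between -0.35 and 0.34, and none was called on either diet. Most other Zfp genes around Zfp979, with the nearest, Zfp985 (27 kb) and Zfp534 (31 kb), were under the limit and have no values. So was Zfp811, 9 kb from Zfp871. Past 1 Mb on chromosome 4, Zfp992 had 65 to 187 unscaled counts in WT HFD and 230 to 407 in Adn-Lpin1-/- HFD mice. On the LFD it had 36 to 86 and 48 to 373, with overlap.

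Across all members, the share that differed between the genotypes was close to that of all genes, and most of the members called were lower. On the LFD, 41 of 273 members passed an adjusted p of 0.05 in edgeR's quasi-likelihood test, which is 15%, against a background of 14.4% of 13052 genes. They split into 33 lower and 8 higher, where the background was 8.11% lower and 6.27% higher. On the HFD, 48 members passed (17.6%, background 18.6%), with 33 lower and 15 higher, against a background of 8.78% lower and 9.87% higher. Without Adn-Lpin1-/- HFD mouse 2 the HFD count was 30. The counts include Zfp871, Zfp423 and Zfp619 on both diets and Zfp979 on the HFD. These genes were chosen on these samples or met the limit through the groups where they were high. Their place in the counts is thus no test of them, and the counts are not wholly free of the choice of members.

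The median member was shifted slightly. On the LFD it had a log2 fold change of -0.05, where all genes tested had 0.01, and on the HFD -0.06, where they had 0.00. The groups did not overlap at all in 34 members on the LFD, which is 12.5% against a background of 10.1%, and in 29 on the HFD, which is 10.6% against 11.4%. On the LFD 26 of these were lower and 8 higher (backgrounds 6.21% and 3.89%), and on the HFD 23 were lower and 6 higher (backgrounds 5.6% and 5.78%). Restricting the members to the 227 over 1 CPM in every library left 37 called on the LFD (31 lower) and 40 on the HFD (31 lower), which is 16.3% and 17.6%. Restricting them to the 198 members with at most 10% shared 75-base stretches and no exon overlapping another gene left 31 (24 lower) and 33 (24 lower), which is 15.7% and 16.7%. In either direction, these shares called are near the backgrounds of 14.4% (LFD) and 18.6% (HFD). Of the calls, 83.8% (LFD) and 77.5% (HFD) were lower among the 227, and 77.4% and 72.7% among the 198. Over all genes tested these shares were 56.4% and 47.1%.

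The LFD and HFD comparisons share no mice. Of the members called, 27 were called on both diets and all 27 moved in the same direction, 21 lower and 6 higher. They were 9.89% of all members, where the background for being called on both diets was 7.78%. They made up 65.9% of the members' LFD calls and 56.2% of their HFD calls, and over all genes tested these shares were 54.1% and 41.7%. Across the 273 members the log2 fold changes on the 2 diets had a Spearman correlation of 0.70, as a description, and across all genes tested it was 0.66. Whether the genotype difference itself depended on diet was tested by an interaction term, which called no member (0 of 273, background 0%, edgeR), and 8 had an unadjusted p under 0.05. DESeq2 and voom also called none. For Zfp871 that difference was 0.89 ± 0.27 on the log2 scale, with adjusted p = 0.453 (edgeR).

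**Figure D2:**
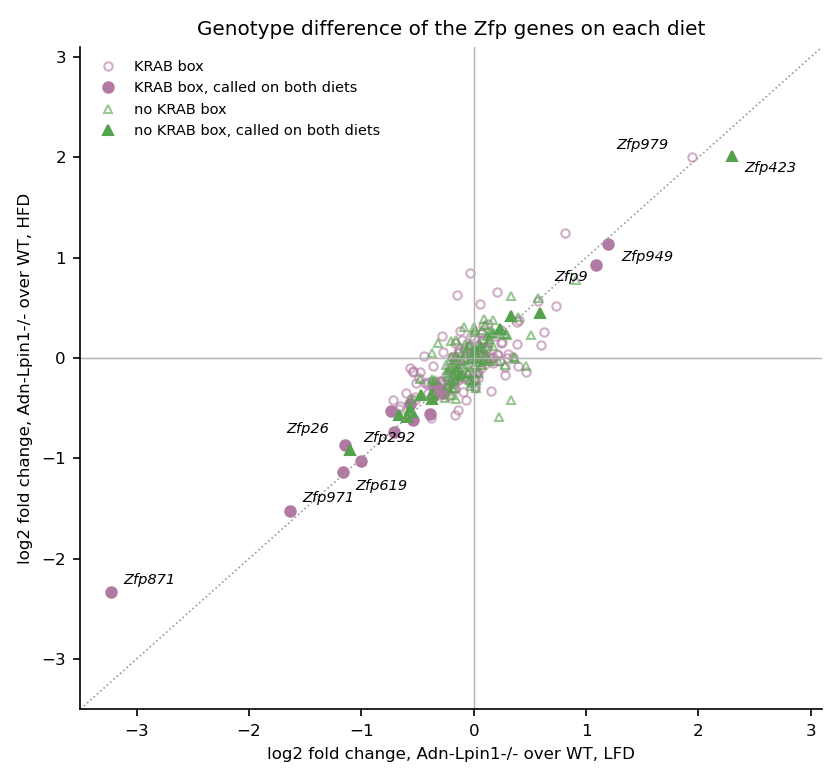
Log2 fold change of each Zfp gene between Adn-Lpin1-/- and WT liver on the LFD (horizontal) and the HFD (vertical). Purple circles have a KRAB box, in green triangles none was found, filled points were called on both diets and the dotted line marks equal values. The 27 filled points lie in the lower left and upper right quadrants only.

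Among the members called lower, Zfp971 had the largest decrease after Zfp871. Zfp971 is a KRAB gene on chromosome 2 with 12 fingers. It stood at 3.72 to 5.51 CPM in WT LFD, 1.04 to 1.65 CPM in Adn-Lpin1-/- LFD, 3.57 to 4.81 CPM in WT HFD and 0.925 to 2.12 CPM in Adn-Lpin1-/- HFD mice. The lowest WT liver was above the highest Adn-Lpin1-/- liver on each diet. The decrease was 3.1-fold on the LFD (log2 -1.63 ± 0.21, adjusted p = 4.28e-05, edgeR) and 2.87-fold on the HFD (log2 -1.52 ± 0.20, adjusted p = 8.26e-05). Of its 75-base stretches 32.8% occurred in another gene, most often Gm14327, so its level is uncertain.

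Zfp619, Zfp26 and Zfp738 are further KRAB genes with long finger arrays, of 33, 22 and 20 fingers. Zfp619 fell from 2.05 ± 0.38 to 0.915 ± 0.227 CPM (SD, n = 5) on the LFD and from 1.86 ± 0.44 to 0.848 ± 0.205 CPM on the HFD. It met the limit in 5 WT LFD, 5 WT HFD, 2 Adn-Lpin1-/- LFD and 1 Adn-Lpin1-/- HFD libraries. It thus entered through the groups where it was high, and no test is given. Zfp26 fell from 6.02 ± 0.72 to 2.72 ± 0.23 CPM and from 5.13 ± 0.335 to 2.81 ± 0.515 CPM, with adjusted p of 6.36e-06 and 0.000125 (edgeR). Zfp738 fell from 4.46 ± 0.35 to 2.22 ± 0.40 CPM and from 4.10 ± 0.49 to 2.01 ± 0.49 CPM, with adjusted p of 0.000341 and 0.000241 (edgeR). None of these groups overlapped between the genotypes. Exons of Zfp26 overlap the opposite-strand gene Gm26733, and the counting was not stated to use strand.

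Members without a KRAB box also fell. Zfp292, which encodes a very large protein, was at 16.5 to 22 CPM in WT LFD and 6.18 to 11 CPM in Adn-Lpin1-/- LFD mice, and at 16.2 to 20.7 and 7.52 to 12.9 CPM on the HFD. Its decrease was 2.14-fold and 1.89-fold, with adjusted p at 8.91e-05 and 0.000437 (edgeR). Zfp524 fell by 0.37 and 0.36 on the log2 scale, with adjusted p of 0.00278 and 0.00339 (edgeR), and 44.0% of its 75-base stretches were shared with Gm44973.

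The members that rose were fewer. Zfp949, a KRAB gene on chromosome 9 with 11 fingers, was at 6.74, 6.61, 6.76, 6.72 and 6.34 CPM in WT LFD mice. In Adn-Lpin1-/- LFD mice it was at 16.3, 15.3, 15.6, 15.7 and 13.2 CPM. On the HFD the values were 7.93, 6.62, 5.41, 6.39 and 6.45 CPM in WT and 14.9, 12.5, 12.2, 15.9 and 16.5 CPM in Adn-Lpin1-/- mice. The WT livers were tightly grouped and all Adn-Lpin1-/- livers were above them. The increase was 2.30-fold on the LFD (adjusted p = 4.27e-07, edgeR) and 2.19-fold on the HFD (adjusted p = 1.47e-06), and no 75-base stretch of Zfp949 occurred in another gene.

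Zfp9, also a KRAB gene, was at 0.893 to 1.21 CPM in WT LFD and 1.87 to 3.09 CPM in Adn-Lpin1-/- LFD mice, and at 0.565 to 1.26 and 1.55 to 1.90 CPM on the HFD. It rose 2.12-fold and 1.91-fold, with adjusted p of 0.00113 and 0.00313 (edgeR). Members in which no KRAB box was found also rose on the LFD with groups that did not overlap. Zfp746, a repressor also known as PARIS, rose by 0.51 ± 0.12 on the log2 scale (adjusted p = 0.00709, edgeR), Zfp408 by 0.33 ± 0.10 (adjusted p = 0.0278) and Zfp384 by 0.23 ± 0.07 (adjusted p = 0.0394). On the HFD, Zfp956 rose by 0.45 ± 0.14 (adjusted p = 0.0344, edgeR) and Zfp414 by 0.38 ± 0.12 (adjusted p = 0.0374), again without overlap. These 4 calls near the threshold (Zfp408, Zfp384, Zfp956 and Zfp414) were lost after the GC correction described below and without single mice of the groups compared. For Zfp408 these were WT LFD mice 2, 3 and 5 and Adn-Lpin1-/- LFD mouse 1, and for Zfp384 all 5 WT LFD mice and Adn-Lpin1-/- LFD mice 1, 3 and 4. For Zfp956 they were WT HFD mice 2 to 5 and Adn-Lpin1-/- HFD mice 1, 2, 4 and 5, and for Zfp414 WT HFD mice 1 to 4 and Adn-Lpin1-/- HFD mice 1 and 2. Exons of Zfp956 and Zfp414 overlap those of Zfp783 and Gm20507 on the same strand.

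The members with known functions were then described by role. Over all genes tested, 14.4% were called on the LFD, 18.6% on the HFD and 7.78% on both diets. The role lists here and below are short, so their counts of calls are no result about the roles. Of 7 listed genes that act on RNA or the ribosome, 6 were members (Zfp593 was under the limit), and 1 was lower on both diets. This was Zfp638, a nuclear protein that works with the HUSH silencing complex and with C/EBP factors in adipogenesis. It was at 22.3, 23.8, 21.7, 21.1 and 22.1 CPM in WT LFD and 14.2, 13.2, 14.5, 18.5 and 13 CPM in Adn-Lpin1-/- LFD mice. On the HFD it was at 23.7, 22.2, 19.2, 22.5 and 24.3 CPM in WT and 13.8, 13.6, 14.3, 14.9 and 17.5 CPM in Adn-Lpin1-/- mice. No WT liver was as low as any Adn-Lpin1-/- liver on the same diet, and the decrease was 1.51-fold on each (adjusted p = 0.000319 and 0.000295, edgeR). The others, Zfp36, Zfp598, Zfp622, Zfp326 and Zfp106, had log2 fold changes between -0.22 and 0.08 and did not pass.

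Of 6 promoter-binding regulators, all members, 1 was lower on both diets. Zfp148, or ZBP-89, binds GC-rich promoters. It was at 25.5 to 32.6 CPM in WT LFD, 19.5 to 21.3 CPM in Adn-Lpin1-/- LFD, 29.5 to 32.4 CPM in WT HFD and 19.5 to 23.1 CPM in Adn-Lpin1-/- HFD mice. Its groups did not overlap, and it fell by 0.55 ± 0.06 and 0.53 ± 0.06 on the log2 scale (adjusted p = 1.61e-05 and 3.03e-05, edgeR). Zfp143, an activator at many promoters, had log2 fold changes of -0.01 and -0.23 (adjusted p = 0.961 and 0.136, edgeR). Zfp281, Zfp410, which maintains Chd4 expression, Zfp64 and Zfp335 did not pass either.

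Of 6 adipocyte and mesenchymal regulators, 5 were members. One of these, Zfp423, enters the counts of genes higher on both diets, which is no test of it. Zfp423, a factor of preadipocyte commitment, was at 0.36, 0.225, 0.298, 0.156 and 0.69 CPM in WT LFD and 0.549, 2.16, 1.02, 1.44 and 3.38 CPM in Adn-Lpin1-/- LFD mice. On the HFD it was at 0.383, 0.491, 0.553, 1.25 and 0.291 CPM in WT and 3.5, 3.68, 2.59, 1.04 and 1.17 CPM in Adn-Lpin1-/- mice. The groups overlapped on both diets and the Adn-Lpin1-/- values were widely spread. The log2 fold change was 2.30 ± 0.54 on the LFD, where the study lists it on these samples, and 2.02 ± 0.49 on the HFD. Of the 10 libraries in which Zfp423 met the limit, 4 were Adn-Lpin1-/- LFD, 5 Adn-Lpin1-/- HFD and 1 WT HFD, so it entered through the groups where it was high, and its genotype values are given with no test. Of the stellate cell markers whose sums are given above, 4 of 8 were called higher in Adn-Lpin1-/- liver on the LFD (background 6.27%). On the HFD 3 of 8 were called higher (background 9.87%). The part of these markers in Zfp423 was not tested. Zfp467, Zfp516, Zfp407 and Zfp217 did not pass on either diet, although Zfp467 was lower on the LFD after the GC correction (adjusted p = 0.0165, edgeR), and Zfp521 was under the limit.

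Of 5 genes that silence retroelements or guard imprints, 3 were members. Zfp445, which maintains imprinted methylation, was at 27.3 to 43.9 CPM in WT LFD and 13.6 to 34.8 CPM in Adn-Lpin1-/- LFD mice, with overlapping groups. It fell by 0.66 ± 0.21 on the log2 scale on the LFD (adjusted p = 0.0383, edgeR), and on the HFD the value was -0.50 ± 0.21 (adjusted p = 0.0929). The LFD call was lost without WT LFD mouse 1, 2, 3 or 4 or Adn-Lpin1-/- LFD mouse 2, 3 or 5, with adjusted p up to 0.089 (edgeR), and after the GC correction described below. Zfp809 and Zfp568, which represses a placental Igf2 transcript, did not pass, and Zfp57 and Zfp819 were under the limit.

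The ubiquitin ligase Zfp91 and the SUMO ligase Zfp451 did not pass on either diet. Zfp91 had the highest CPM of all members, at 112 ± 8.3, 101 ± 8.4, 118 ± 10.7 and 108 ± 8.2 CPM in WT LFD, Adn-Lpin1-/- LFD, WT HFD and Adn-Lpin1-/- HFD liver. Of the Z3 complex, Zfp532 and Zfp687 rose on the HFD by 0.62 ± 0.20 and 0.27 ± 0.08 on the log2 scale (adjusted p = 0.0372 and 0.0238, edgeR), and Zfp592 had a value of -0.01. Both calls were lost after the GC correction and without WT HFD mouse 1 or 3 or Adn-Lpin1-/- HFD mouse 1, that of Zfp532 also without WT HFD mouse 2 or 5 or Adn-Lpin1-/- HFD mouse 2, and that of Zfp687 also without WT HFD mouse 4. Zfp69, a candidate gene of a mouse diabetes locus, rose on the HFD by 0.63 ± 0.21 (adjusted p = 0.0459, edgeR), and had a value of -0.15 on the LFD. Its call was lost in 12 of 20 fits that left out 1 mouse, with adjusted p up to 0.12 (edgeR), those without WT LFD mouse 3 or 4, Adn-Lpin1-/- LFD mouse 1, 2 or 4, WT HFD mouse 3, 4 or 5, or Adn-Lpin1-/- HFD mouse 1, 2, 4 or 5.

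The partners through which KRAB proteins act were measured from a list of 25 co-repressor genes, all of which were tested. On the LFD 3 were called (2 lower, 1 higher) and on the HFD 5 (4 lower, 1 higher), which is 12% and 20% against the backgrounds of 14.4% and 18.6%. Trim28, the universal KRAB partner, was at 61.1 ± 6.0, 55 ± 2.6, 58.4 ± 3.8 and 58.2 ± 5.1 CPM in WT LFD, Adn-Lpin1-/- LFD, WT HFD and Adn-Lpin1-/- HFD liver and did not pass (adjusted p = 0.172 and 0.960, edgeR). With the GC trend removed, as described below, Trim28 was lower on the LFD (log2 -0.24, adjusted p = 0.0321, edgeR). Setdb1 did not pass either. Rbbp4, a histone chaperone, fell on both diets by 0.38 and 0.34 on the log2 scale (adjusted p = 0.0145 and 0.0222, edgeR). Uhrf1, which guides maintenance DNA methylation, is the one counted as higher, at 0.551 ± 0.243 against 1.16 ± 0.47 CPM on the LFD and 0.553 ± 0.15 against 1.22 ± 0.14 CPM on the HFD. It met the limit of 1 CPM in 4 Adn-Lpin1-/- LFD, 5 Adn-Lpin1-/- HFD and 0 WT libraries, so it entered through the groups where it was high, and no test is given. Cbx5 (HP1 alpha) fell on the LFD, and Cbx3 (HP1 gamma), Mta1 and Smarcad1 fell on the HFD. With the GC trend removed, the HFD calls of Rbbp4 and Cbx3 were lost, and Mta1 on the LFD (log2 -0.19, adjusted p = 0.0452, edgeR) and Mbd2 on the HFD (log2 -0.20, adjusted p = 0.021, edgeR) were gained as lower.

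GC content was considered because the log2 fold changes of the members rose with it. As a description across the 273 members, which share the same libraries, transcript GC content had a Spearman correlation with the genotype log2 fold change of 0.45 (LFD) and 0.41 (HFD), and over all genes tested it was 0.28 and 0.31. Under 40% GC there were 63 members, of which 18 were called lower and 0 higher on the LFD, a share lower of 28.6%. The 684 other genes tested under 40% GC had 25.6% lower and 1.17% higher. On the HFD the shares lower were 27% of the members and 25.9% of the other genes.

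At higher GC content the direction turned. Of the 41 members at 50% to 55% GC, 3 were called higher and 0 lower on the LFD, and 5 and 0 on the HFD. The shares higher were 7.32% and 12.2%, near the 7.12% and 11.8% of the other genes in the bin, which had 3.68% and 4.82% lower. Of the 41 at 55% or more, 3 were higher and 1 lower on the LFD, and 4 and 2 on the HFD. The shares higher were 7.32% and 9.76%, below the 12.4% and 19.3% of the other genes in that bin, and this difference was not tested. Under 40% GC the members had a median log2 fold change of -0.27 (LFD) and -0.24 (HFD), against -0.13 and -0.15 for the other genes. At 55% or more it was 0.07 and 0.04, against 0.09 and 0.11. Before any correction the members thus followed the other genes of the same GC content in sign in each of these bins. With the GC trend removed, as described below, the medians under 40% GC were -0.07 (LFD) and -0.06 (HFD) for the members. Those of the other genes were 0.05 and 0.04, of the opposite sign. At 55% or more the members had 0.007 and -0.09, and the other genes 0.01 and -0.002. These differences were not tested.

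**Figure D3:**
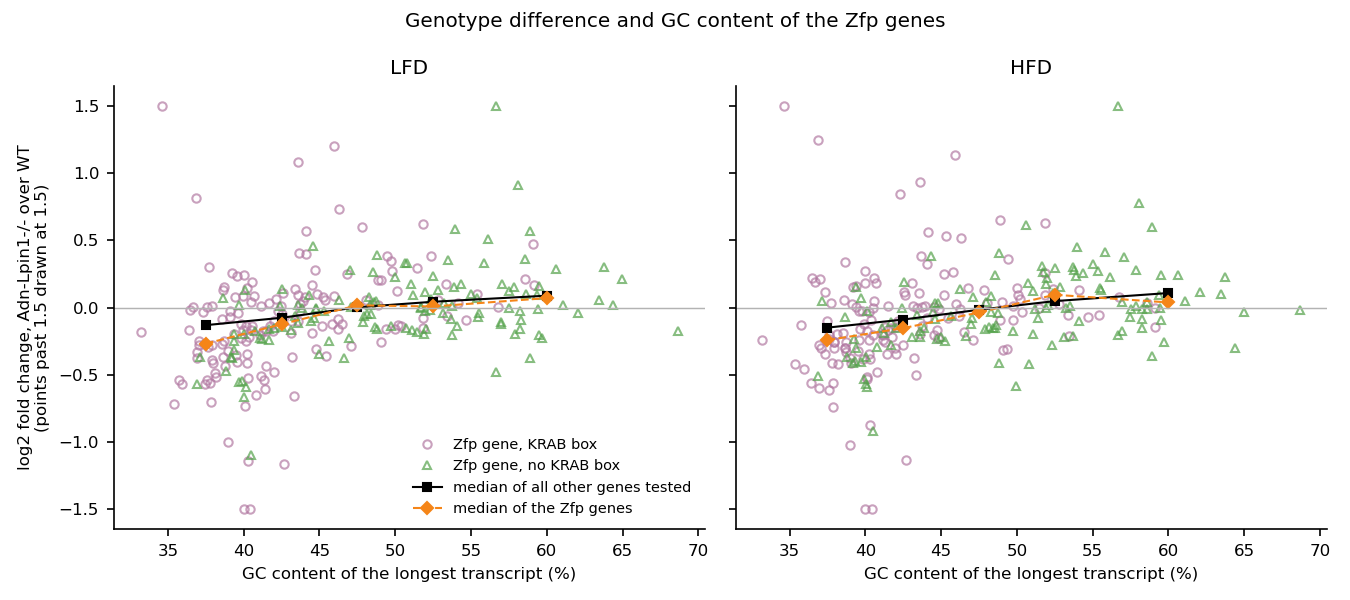
Genotype log2 fold change of each Zfp gene (vertical, Adn-Lpin1-/- over WT) against the GC content of its longest transcript in percent (horizontal), on the LFD and the HFD. Purple circles have a KRAB box and in green triangles none was found. Black squares are medians of all other genes tested and orange diamonds medians of the Zfp genes in 5 GC bins, and both lines rise from below 0 under 40% to above 0 at 55% and over.

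**Figure D4:**
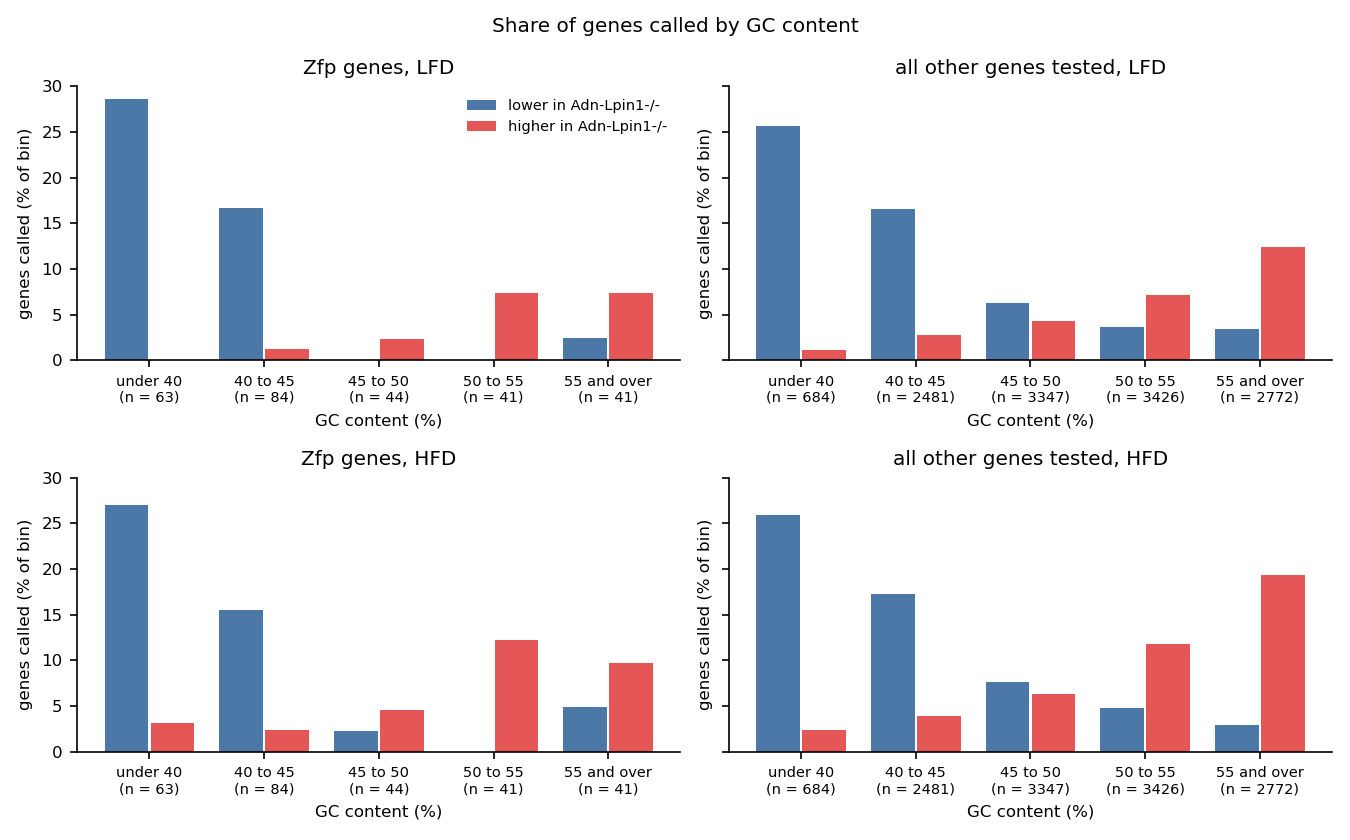
Share of genes called (vertical, percent of the bin) by GC content (horizontal), for the Zfp genes and all other genes tested, on each diet. Blue bars are genes lower and red bars genes higher in Adn-Lpin1-/- liver. In the bin under 40% the lower share is 28.6% of the Zfp genes and 25.6% of the other genes on the LFD.

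A KRAB box and a low GC content went together, and the calls were divided accordingly. Of the 149 members with a KRAB box, 25 were called on the LFD (23 lower) and 26 on the HFD (19 lower), with median log2 fold changes of -0.10 and -0.09. Of the 122 without, 16 (10 lower) and 22 (14 lower) were called, with medians of -0.03 and -0.03. In either direction, the shares called were 16.8% and 17.4% with a KRAB box and 13.1% and 18% without. These are near the backgrounds of 14.4% (LFD) and 18.6% (HFD). By direction, 92% (LFD) and 73.1% (HFD) of the calls with a KRAB box were lower, and 62.5% and 63.6% of those without. Over all genes tested these shares were 56.4% and 47.1%. After each library's trend with GC content, fitted over all genes tested, was removed, the medians were -0.01 and -0.02 with a KRAB box and -0.04 and -0.05 without. The difference between the 2 classes was not tested.

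With the GC trend removed, 27 members were called on the LFD (20 lower, 7 higher) and 29 on the HFD (17 lower, 12 higher), against backgrounds of 12.8% and 16% of all genes. By direction these backgrounds were 7.26% lower and 5.52% higher on the LFD, and 8.04% lower and 7.92% higher on the HFD. As shares of the 273 members, both counts of calls lie below the backgrounds. The share lower, which was above its background on both diets before the correction, was near it on the LFD and below it on the HFD. The share higher was below its background on both diets. Of the members called without this correction, 22 of 41 and 25 of 48 were still called. In all, 15 members were called on both diets both with and without the correction. The matching shares over all genes tested are not given here, so these counts of calls kept are no result about the Zfp genes. Of these 15 members, the 12 lower were Zfp871, Zfp971, Zfp619, Zfp26, Zfp292, Zfp738, Zfp960, Zfp397, Zfp638, Zfp654, Zfp148 and Zfp524. The 3 higher were Zfp9, Zfp949 and Zfp423. The study chose Zfp871, and Zfp423 on the LFD, on these same samples. Zfp423 also met the limit mainly through Adn-Lpin1-/- libraries, and Zfp619 mainly through WT libraries. The place of Zfp871, Zfp423 and Zfp619 in this list is thus no test of them. The log2 fold change of Zfp871 moved from -3.23 to -3.07 on the LFD and from -2.34 to -2.19 on the HFD, and that of Zfp979 from 1.94 to 2.16 and from 2.00 to 2.30. Zfp148 and Zfp638 moved more in proportion, from -0.55 to -0.39 and from -0.60 to -0.44 on the LFD, and remained called. Of the 75-base stretches of Zfp960, 75.3% were shared, mostly with Zfp97, so these 2 genes cannot be told apart reliably.

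The same shift could be followed in single mice. The median deviation of the KRAB members from their own mean over the 20 mice, on a log2(CPM + 0.5) scale, was 0.03 to 0.06 in the WT LFD mice and -0.13 to -0.02 in the Adn-Lpin1-/- LFD mice, without overlap. On the HFD it was -0.01 to 0.17 and -0.12 to 0.11, with overlap. Members without a KRAB box overlapped on both diets. The other genes under 40% GC had medians of 0.02 to 0.14 in WT LFD and -0.11 to -0.0047 in Adn-Lpin1-/- LFD mice, and on the HFD 0.03 to 0.18 and -0.18 to -0.06.

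**Figure D5:**
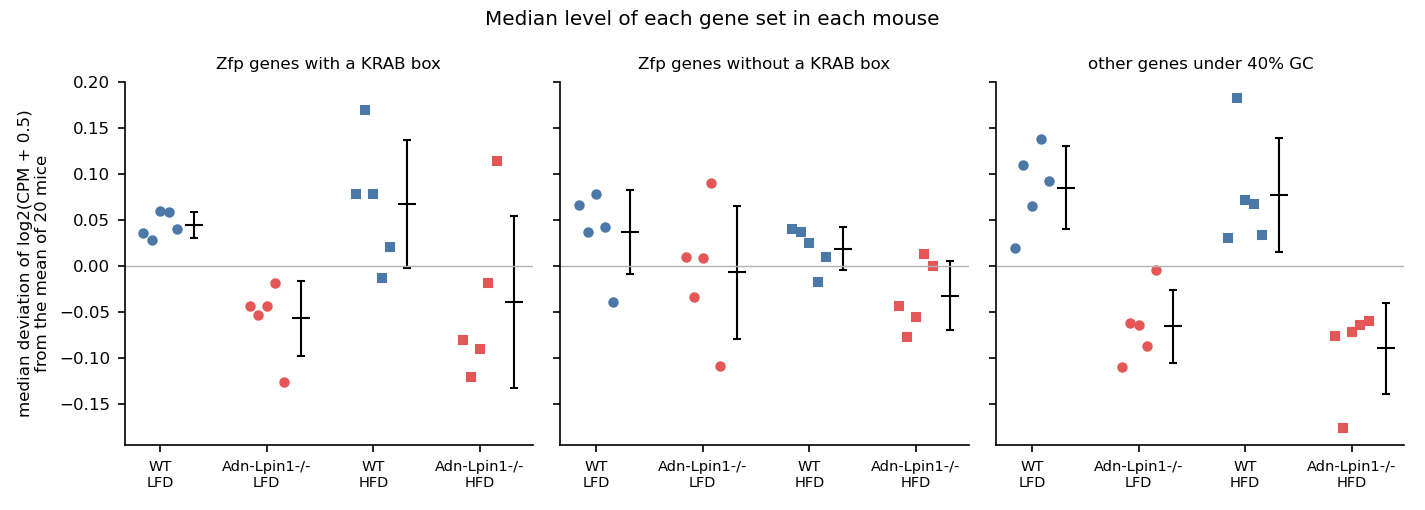
Median deviation of 3 gene sets from the mean of 20 mice (vertical, log2(CPM + 0.5) scale) in each mouse of the 4 groups (horizontal). Points are mice and bars the mean ± SD of 5 mice. KRAB members separate the genotypes on the LFD only, and the other genes under 40% GC separate them on both diets.

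Calls were also counted by position. On chromosome 17, 10 of 36 members were called on the LFD, all lower, and 9 on the HFD, of which 8 were lower, with median log2 fold changes of -0.19 and -0.20. These are 27.8% and 25%, against backgrounds of 14.4% (LFD) and 18.6% (HFD). On chromosome 7, which holds the most members, 5 of 70 were called on each diet, which is 7.14% and below both backgrounds. On chromosome 6, 5 of 14 were called on each diet (35.7%), of which 4 were higher on the LFD and 3 on the HFD. On the HFD 5 of 15 were called on chromosome 9 (33.3%, 2 higher) and 5 of 13 on chromosome 4 (38.5%, 4 higher), where the LFD had 4 and 2. No difference between chromosomes was tested. The Zbtb, Zkscan and Zscan genes, 54 further zinc finger genes tested, had 9 called on the LFD (8 lower) and 10 on the HFD (7 lower), which is 16.7% and 18.5%, near the backgrounds of 14.4% and 18.6% (8.11% and 8.78% lower).

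Few Zfp genes were called by diet. In WT liver 0 of 273 members were called between the HFD and the LFD, against a background of 1.1% (0.429% higher, 0.674% lower), although 24 had an unadjusted p under 0.05. DESeq2 also called 0 and voom called 1. In Adn-Lpin1-/- liver 1 member was called, which is 0.366% against a background of 2.46% (1.2% higher, 1.26% lower), and 13 had an unadjusted p under 0.05. The groups did not overlap in 6 members in WT (2.2%, background 3.73%), 4 higher and 2 lower (backgrounds 1.62% and 2.11%). In Adn-Lpin1-/- liver they did not overlap in 2 members, both higher (0.733%, background 4.06%, of which 2.02% higher and 2.04% lower).

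The member called was Zfp871. The 5 Adn-Lpin1-/- livers averaged 2.64 ± 0.91 CPM (SD) on the LFD and 4.59 ± 1.28 CPM on the HFD, and the groups overlapped. It was 1.75-fold higher on the HFD (log2 0.81 ± 0.20, adjusted p = 0.0378, edgeR). In WT liver the means were 24.6 ± 2.5 and 23.2 ± 2.2 CPM (log2 -0.09, adjusted p = 0.871, edgeR). The call was lost without WT LFD mouse 1, Adn-Lpin1-/- LFD mouse 2, 3 or 5, WT HFD mouse 3 or Adn-Lpin1-/- HFD mouse 1, 3, 4 or 5, with adjusted p from 0.0178 to 0.111 (edgeR) over the 20 fits that each left out 1 mouse. It was also lost under 4 of 13 other settings. Zfp979 had log2 values by diet of 1.5 in WT and 1.56 in Adn-Lpin1-/- liver, given with no test because it met the limit in 1 Adn-Lpin1-/- LFD, 4 Adn-Lpin1-/- HFD and 0 WT libraries. Zfp36 had values of -0.43 and -0.39 (adjusted p = 0.208 and 0.242, edgeR).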

How the data were processed

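Poly-A selected liver RNA of 24 libraries was sequenced, 20 from single mice and 4 from pools. The authors aligned reads to GRCm38 with STAR 2.5.1a and counted uniquely aligned, unambiguous reads per Ensembl gene (release 76) with featureCounts 1.4.6-p5, and whether counting used strand is not given in the sources used here. The deposited count is the raw number of reads per gene, the deposited CPM is that count scaled to the library total, and the deposited RPKM is CPM per kilobase of exon. Only the count was analysed. CPM and RPKM in the text were recomputed with TMM scaling.

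The 355 rRNA genes were left out and 13052 genes over 1 CPM in at least 4 of 20 libraries were tested with edgeR 4.0.16 (quasi-likelihood test, 4 group means in 1 fit, R 4.3.3), with Benjamini-Hochberg adjustment over all of them and calls at 0.05. A standard error is the log2 fold change divided by the square root of its F statistic. Pools were left out because they hold the same mice. Alternatives used DESeq2 1.42.0, limma 3.58.1 (voom with quality weights), other filters, thinned counts, corrections for GC content and length (lowess, span 0.5), a block on replicate number, and each mouse left out. Models were tested on simulated data. Totals differed by group, from 36260187 to 45999456 in WT LFD and from 57550362 to 81072794 in Adn-Lpin1-/- HFD mice, so low genes are least precise in WT LFD.

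Symbols came from a gene table that matched 40254 of 41388 genes. GC content is that of the longest GENCODE M21 transcript (GRCm38). Fingers and KRAB boxes were sought in translated GENCODE coding sequences, in place of the RefSeq proteins first planned, and a KRAB box is a position-weight score of at least 0. Shared stretches are the 75-base stretches of a gene's transcripts found in transcripts of another gene. The members, lists and tests were chosen with earlier results of these data known. Genes were named by rule: Zfp871 and Zfp979, the 5 largest increases and decreases among called members without overlap at 1 CPM or more per contrast, the 5 of highest RPKM, the role lists, and the genes next to the limit. Zfp81, Zfp982, Zfp984, Zfp933, Zfp811, Zfp985 and Zfp534 are named as neighbours and Zfp992 as lying past 1 Mb. Zfp960, Zfp97, Zfp397 and Zfp654 are named as members called in all 4 fits or their copies. All these members were chosen after their values were seen. No p is given for the genotype difference of Zfp871, Zfp979 and Zfp423, which the study chose on these samples (Zfp423 on the LFD). None is given for Zfp979, Zfp423, Zfp619 and Uhrf1 where they met the limit through the groups in which they were high. Mbd2 and the other co-repressors with values were named after their values were seen. Of the cell type lists fixed here, cholangiocyte, T cell, B cell and erythroid genes gave no genotype call, and neutrophil and adipocyte genes were under the limit. The p-values measure the spread between mice.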

Additional observations from a re-analysis of the deposited data

Results flagged for a closer look

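Within each of 42 named genes and 4 groups of 5 mice, the highest or lowest mouse was compared with the others by Dixon's criterion (gap over range above 0.71), which flags about 1 in 20 groups by chance. Of the 168 groups examined, 13 were flagged. Zfp979 in WT LFD mouse 5 was at 0.567 CPM, with the next at 0.179 CPM. Zfp423 in WT HFD mouse 4 was at 1.25 CPM, with the next at 0.553 CPM. Zfp638 in Adn-Lpin1-/- LFD mouse 4 was at 18.5 CPM, with the next at 14.5 CPM.

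WT LFD mouse 5 was also the highest of its group in Zfp532, at 5.62 CPM, and the lowest in Zfp445, at 27.3 CPM, and in Zfp568, at 8.78 CPM. WT HFD mouse 4 was the highest in Zfp746, at 23.8 CPM, and in Zfp36, at 103 CPM. The remaining flags were Zfp384 in Adn-Lpin1-/- HFD mouse 1 (lowest, 32.4 CPM), Zfp414 in WT LFD mouse 2 (highest, 4.25 CPM), Zfp622 in WT HFD mouse 5 (highest, 21.4 CPM), Zfp326 in Adn-Lpin1-/- HFD mouse 5 (highest, 13.3 CPM) and Zfp281 in Adn-Lpin1-/- HFD mouse 4 (highest, 28.5 CPM). Without that last mouse Zfp281 was called lower in Adn-Lpin1-/- than in WT liver on the HFD (adjusted p = 0.0244, edgeR) and lower on the HFD than the LFD in Adn-Lpin1-/- liver (adjusted p = 0.0433, edgeR).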

How the results depend on the processing

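The number of members called was 41 on the LFD and 48 on the HFD. Removing the GC trend gave 27 and 29, GC and length 26 and 30, a replicate block with the GC correction 27 and 25, voom with the pools as further libraries 77 and 95, and no filter on low counts 27 on the LFD. The higher share of HFD calls went from 31.2% to 41.4% with the GC trend removed. With the other settings the counts stayed within 1.5 times. Leaving out 1 mouse gave 29 to 44 on the LFD and 30 to 49 on the HFD, 0 to 1 for diet in WT and 0 to 2 for diet in Adn-Lpin1-/- liver. For diet in WT the count of 0 became 1 with voom and 23 with voom and the pools. For diet in Adn-Lpin1-/- liver the count of 1 became 3 with DESeq2, 23 with voom and the pools, and 0 with only the 2 groups compared, with the replicate block and with the block and GC correction. The pools hold the same mice as the single libraries, so they are not independent of them. The cause of the other changes was not tested.

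The replicate block alone gave 35, 38, 0, 0 and 0 calls for genotype on the LFD, genotype on the HFD, both diet comparisons and the difference between diets. Replicate numbers did not pair the mice. Over 30 pairs of the same number the correlation of deviations ran from -0.42 to 0.28 with a median of -0.01, and 5 of 20 mice correlated best with their own number. For single genes and medians, 6902 values kept their direction and their side of the threshold, 118 lost a call, 26 gained one and 1 moved, and none reversed. The value that moved was Zfp979 on the LFD, at 2.86 without WT LFD mouse 5. Low counts limit Zfp979 and Zfp423 most, at 0 to 54 and 6 to 65 counts in WT livers.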
